A study of Mus musculus with 11 samples.

Results

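Perivenous hepatocyte genes are those that hepatocytes transcribe next to the central vein, where blood leaves the liver lobule. The 10 genes described here are Glul, Slc1a2, Rhbg, Oat, Cyp2e1, Cyp1a2, Rgn, Lgr5, Axin2 and Tbx3, chosen by name as genes of that zone, out of 22911 genes named on the array. All probes of these genes were taken through the RefSeq accession in the array files, which gave 15 of 56605 probes: 3 for Glul, 2 each for Cyp2e1, Axin2 and Tbx3, and 1 for each of the other genes. All 15 passed the filter on dim probes, which asked for a signal well above background on 2 or more of 11 arrays. Of them, 14 were well above background on all 11 arrays, while A_66_P134405 of Axin2 was so on 9.

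RNA was taken from whole liver of wild-type C57Bl6/J male mice, injected intraperitoneally at 8 weeks of age with AAV8 vectors, and the liver was removed 5 days later. The GFP group (3 arrays) received 6e+11 vector genomes of AAV8-GFP per mouse. The NICD1 group (3 arrays) received 3e+11 of AAV8-NICD1 with 3e+11 of AAV8-GFP, and the NICD2 group (3 arrays) received AAV8-NICD2 with AAV8-GFP at those doses. The NICD1&2 group (2 arrays) received 3e+11 of each NICD vector and 0 of AAV8-GFP, so that all groups received 6e+11 in total and the GFP dose differed between groups. NICD1 is the part of the Notch1 receptor that is cut free and acts in the nucleus, and NICD2 is that part of Notch2. The vectors carried the CMV promoter, which is not restricted to hepatocytes, and the livers kept their own Notch genes. The labels do not say which animal each array came from, so that p-values measure the spread between these arrays, which may in part be technical.

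In the liver lobule, endothelial cells of the central vein secrete Wnt ligands and R-spondin, and neighbouring hepatocytes respond through Frizzled and Lrp receptors, beta-catenin and TCF/LEF factors on DNA. Axin2, Lgr5 and Tbx3 are classical targets of this pathway. Glul, the glutamine synthetase that fixes ammonia which escaped the urea cycle upstream, is confined to the last rows of hepatocytes before the vein, and Cyp2e1 and Cyp1a2 span a wider area. Notch acts on DNA through RBPJ and in liver is best known for turning cells toward the bile duct fate.

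RefSeq promoters (GRCm38.p6) were at hand for 6 of the 10 genes: Glul, Slc1a2, Oat, Cyp2e1, Cyp1a2 and Axin2. The 250 bases upstream of each start were searched on both strands for the TCF/LEF letters (CTTTGAA and CTTTGAT and also CTTTGTA and CTTTGTT) and for the RBPJ letters TGGGAA. A TCF/LEF match lay in 3 of the 6, Cyp2e1, Cyp1a2 and Slc1a2, and in 14.8% of 32851 mouse promoters of that length. An RBPJ match lay in 0 of the 6 and in 21.6% of all promoters. A match is a run of letters and not a binding site, and no binding was measured. The 3 promoters with a match are shown, with that of Axin2, a Wnt target gene, for comparison. Capitals mark the match, which starts 135 bases before the start in Cyp2e1 (chr7:140763569-140763818, plus strand), 244 bases before it in Cyp1a2 (chr9:57683656-57683905, minus strand) and 207 bases before it in Slc1a2 (chr2:102706188-102706437, plus strand), whereas the Axin2 window (chr11:108920099-108920348, plus strand) holds none of these letters.
Cyp2e1: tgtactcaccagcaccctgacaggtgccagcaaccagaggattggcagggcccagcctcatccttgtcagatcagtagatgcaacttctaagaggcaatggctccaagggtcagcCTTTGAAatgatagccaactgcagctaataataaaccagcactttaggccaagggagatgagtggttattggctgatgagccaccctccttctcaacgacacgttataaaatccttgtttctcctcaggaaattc
Cyp1a2: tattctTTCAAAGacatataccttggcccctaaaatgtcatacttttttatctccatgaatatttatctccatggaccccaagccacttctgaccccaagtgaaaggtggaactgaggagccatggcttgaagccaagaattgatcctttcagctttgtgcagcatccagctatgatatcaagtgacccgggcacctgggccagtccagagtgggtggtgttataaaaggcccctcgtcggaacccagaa
Slc1a2: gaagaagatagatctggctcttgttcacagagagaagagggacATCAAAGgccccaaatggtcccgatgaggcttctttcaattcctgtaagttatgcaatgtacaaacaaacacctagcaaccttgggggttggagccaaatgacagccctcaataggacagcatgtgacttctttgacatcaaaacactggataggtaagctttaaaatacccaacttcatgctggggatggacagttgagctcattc
Axin2: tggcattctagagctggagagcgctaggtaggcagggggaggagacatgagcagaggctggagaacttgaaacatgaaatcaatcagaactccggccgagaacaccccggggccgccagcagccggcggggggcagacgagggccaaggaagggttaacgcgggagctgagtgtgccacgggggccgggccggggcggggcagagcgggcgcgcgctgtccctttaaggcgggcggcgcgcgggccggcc

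Each array held 59305 spots other than controls, of which 57.0% to 62.0% were well above background and 0 were saturated. Both slides used, each scanned once, held arrays of all 4 groups. Among 8 hepatocyte markers from Alb to Hnf4a, 8 were well above background on all 11 arrays. Nrarp, a direct Notch target, lay between -6.92 and -4.60 in GFP, -5.19 and -3.83 in NICD1, -2.68 and -2.10 in NICD2 and at -1.85 on both NICD1&2 arrays, and was well above background on 7 of 11 arrays. For other Notch targets the log2 fold change from GFP with NICD1, NICD2 and NICD1&2 was -0.03, 1.64 and 1.36 for Hes1, 0.11, 0.29 and 0.71 for Hey1 and -0.22, -0.43 and -0.64 for Heyl, with 0 called (limma). Levels, here and below, are log2 normalized signals, in which 0 is the 75th percentile of the array. For the probes of Notch1 and Notch2 it was not known whether they lie in the part that the vectors carry, so that they check nothing about the vectors.

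No probe of the perivenous genes passed an adjusted p of 0.05 (limma, Benjamini-Hochberg over 36055 probes tested) in any of 8 tests. With NICD1 the lowest adjusted p among the 15 probes was 0.883, and 0.00832% of all probes were called. With NICD2 it was 0.399, and 0.0527% of all probes were called. With NICD1&2 it was 0.180, and 0.0998% of all probes were called. At an unadjusted p under 0.05, the counts were 1 of 15 for NICD1 (Axin2) against 5.48% of all probes, 3 for NICD2 (Axin2 and both Tbx3 probes) against 6.81%, and 1 for NICD1&2 (Lgr5) against 14.8%. In these 3 comparisons with GFP, which share the same GFP arrays, the 95% confidence interval lay within a 2-fold change either way for 8, 8 and 7 of the 10 genes. The genes outside it were Axin2 and Tbx3 in each comparison and Lgr5 with NICD1&2.

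With 1 probe per gene (the brightest by its mean on the 11 arrays), 2 of the 10 genes were higher and 8 lower with NICD1, 5 and 5 with NICD2, and 6 and 4 with NICD1&2. Of all 16633 genes tested, 8404, 9186 and 11092 were higher, which is the background for these counts and for those of the lists below. The median log2 fold change of the 10 genes was -0.16, -0.02 and 0.06, and that of all 16633 genes tested was 0.00, 0.02 and 0.12. The last of these medians moved to 0.02 after quantile normalization, so that a member's value with NICD1&2 is read relative to it. Under that setting and under normexp background correction, 2 of the 10 genes (Oat and Rhbg) were higher and 8 lower with NICD1&2, and their median turned to -0.14 and -0.12. It also turned to -0.02 with the percentile of detected probes and without GFP 3. The NICD1 median was -0.07 after quantile normalization and under normexp, and -0.06 without NICD1 3, and the NICD2 median was 0.01 without NICD2 2. In whole-liver RNA, fewer cells of a type and less RNA per cell cannot be told apart.

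**Figure D1:**
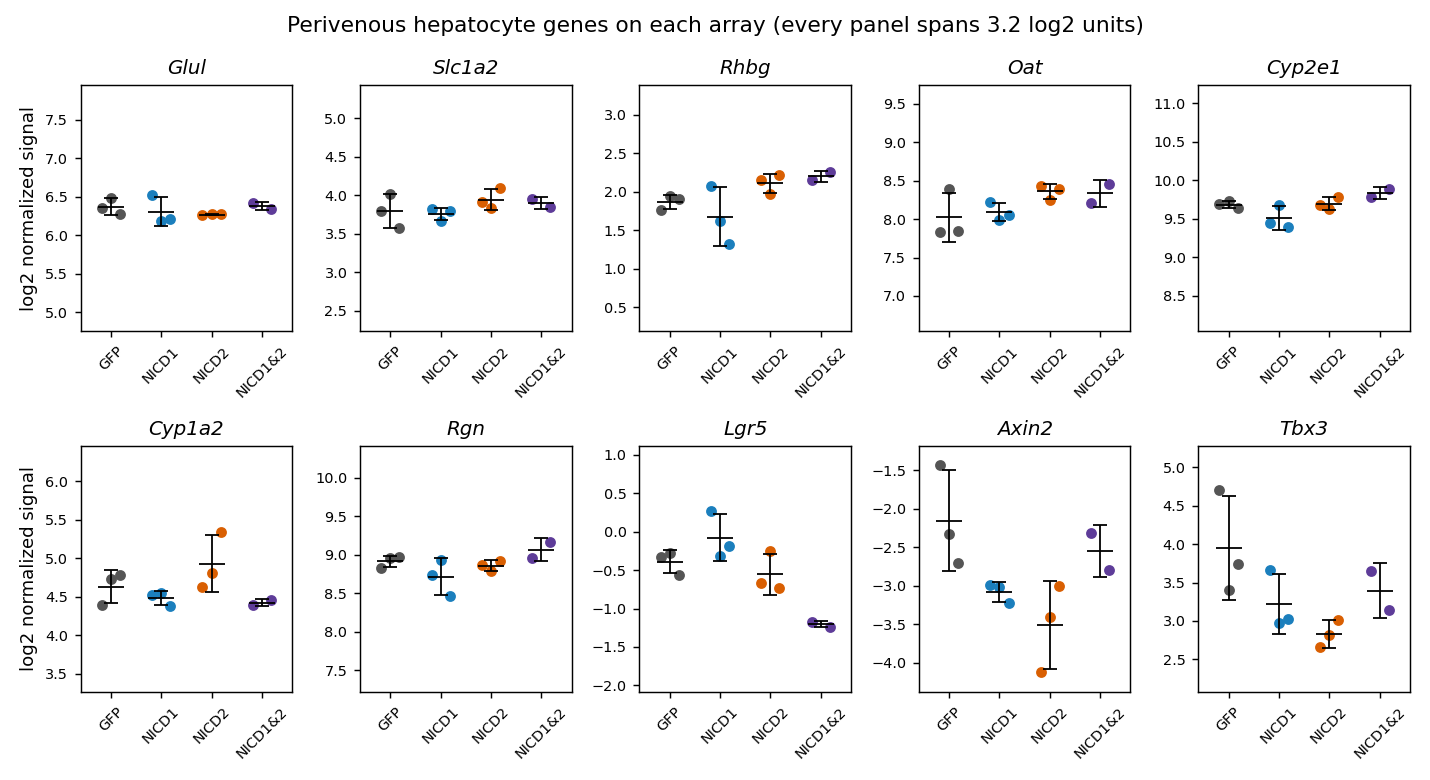
Log2 normalized signal of each perivenous gene (its brightest probe) on each array by group, with each dot an array, the horizontal line the group mean and the error bars the SD over 3 arrays (2 for NICD1&2). Every panel spans the same number of log2 units. Glul stayed between 6.18 and 6.52 on all arrays, the NICD1&2 arrays were the lowest for Lgr5 at -1.18 and -1.23, and GFP 1 was the highest for Axin2 at -1.43 and for Tbx3 at 4.70.

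The genes of glutamine and ammonia handling come first. Glul measured 6.35, 6.48 and 6.27 in GFP, 6.52, 6.18 and 6.21 in NICD1, 6.26, 6.27 and 6.27 in NICD2, and 6.42 and 6.34 in NICD1&2 on its brightest probe. All groups overlapped GFP, and the highest and the lowest array were both of the NICD1 group. The range over 11 arrays was 0.34 log2, or 1.26-fold. The log2 fold change against GFP was -0.06 with NICD1 (95% confidence interval -0.32 to 0.19), -0.10 with NICD2 (-0.36 to 0.15) and 0.01 with NICD1&2 (-0.27 to 0.30), so that the intervals reached at most 1.25-fold, 1.28-fold and 1.21-fold lower. The other Glul probes, A_66_P134479 and A_52_P143866, differed from GFP by -0.14 to 0.03 log2 in these comparisons. With 1 array left out, the NICD1 value lay between -0.17 (without NICD1 1) and -0.00349 (without NICD1 2) and the NICD2 value between -0.15 (without GFP 3) and -0.04 (without GFP 2). The sign of the NICD1&2 value was not stable, since it was -0.16 after quantile normalization.

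Slc1a2, a glutamate transporter that supplies Glul with substrate, measured 3.79, 4.02 and 3.57 in GFP, 3.82, 3.66 and 3.80 in NICD1, 3.91, 3.83 and 4.10 in NICD2, and 3.95 and 3.85 in NICD1&2. The GFP arrays spanned nearly the whole range of the gene, and no group was separate from GFP. The log2 fold changes were -0.03, 0.15 and 0.11 (adjusted p = 0.982, 0.925 and 0.722, limma), and the last turned to -0.01 after quantile normalization. With 1 array left out, the NICD2 value lay between 0.04 (without GFP 3) and 0.26 (without GFP 2).

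Rhbg, an ammonium transporter of the hepatocyte membrane, measured 1.77, 1.94 and 1.91 in GFP and 2.08, 1.62 and 1.32 in NICD1. It measured 2.15, 1.97 and 2.21 in NICD2, and 2.15 and 2.25 in NICD1&2. All arrays of NICD2 and of NICD1&2 lay above all GFP arrays, as they did for 7.7% and 24.1% of all probes, while NICD1 held the lowest arrays and also 1 above GFP. Against GFP, the log2 fold change was -0.20 (SE 0.18) with NICD1, 0.24 (SE 0.18) with NICD2 and 0.33 (SE 0.20) with NICD1&2, with adjusted p of 0.927, 0.890 and 0.429 (limma). The NICD1 value was -0.02 without NICD1 3 and -0.40 without NICD1 1. By exact two-sided permutation of the arrays p was 0.1 for NICD2 and 0.2 for NICD1&2 with the one-sided p doubled, the smallest that this form of the test gives for 3 against 3 and 2 against 3 arrays.

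Oat, the ornithine aminotransferase that feeds glutamate to the same cells, measured 7.83, 8.39 and 7.85 in GFP, 8.22, 7.99 and 8.05 in NICD1, 8.43, 8.25 and 8.39 in NICD2, and 8.21 and 8.46 in NICD1&2. GFP 2 lay with the NICD2 arrays, and the other GFP arrays were the lowest of all. The difference from GFP was 0.34 with NICD2 (SE 0.16, adjusted p = 0.774, limma) and 0.31 with NICD1&2 (SE 0.18, adjusted p = 0.421), and 0.07 with NICD1. With 1 array left out, the NICD2 value lay between 0.24 (without GFP 1) and 0.52 (without GFP 2). The NICD1&2 value lay between 0.19 (without NICD1&2 2) and 0.50 (without GFP 2), with 0.21 without GFP 1, and was 0.12 after quantile normalization.

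The metabolic genes Cyp2e1, Cyp1a2 and Rgn come next. Cyp2e1, the cytochrome P450 that oxidizes ethanol and acetaminophen, measured 9.68, 9.72 and 9.63 in GFP, 9.44, 9.68 and 9.39 in NICD1, 9.68, 9.62 and 9.78 in NICD2, and 9.78 and 9.89 in NICD1&2. NICD1 1 and NICD1 3 were the lowest arrays, and both NICD1&2 arrays lay above all GFP arrays on this probe and on A_51_P283456, as for 24.1% of all probes. The difference from GFP was -0.18 with NICD1 (95% confidence interval -0.41 to 0.06), 0.02 with NICD2 (-0.22 to 0.25) and 0.15 with NICD1&2 (-0.11 to 0.42). After quantile normalization the first was -0.04 and the last turned to -0.12. Leaving out 1 array gave -0.27 (NICD1 2) to -0.12 (NICD1 3) for the first. For the last it gave 0.10 (NICD1&2 2) to 0.21 (NICD1&2 1).

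Cyp1a2, which oxidizes caffeine and aromatic amines and answers to the aryl hydrocarbon receptor, measured 4.39, 4.73 and 4.78 in GFP, 4.52, 4.55 and 4.38 in NICD1, 4.63, 4.81 and 5.35 in NICD2, and 4.39 and 4.46 in NICD1&2. NICD2 3 was the highest array, and the NICD1&2 arrays were within the range of NICD1. The difference from GFP was -0.15 (SE 0.18), 0.30 (SE 0.18) and -0.21 (SE 0.21) with NICD1, NICD2 and NICD1&2, with adjusted p of 0.938, 0.851 and 0.615 (limma). With 1 array left out, the NICD2 value lay between 0.09 (without NICD2 3) and 0.44 (without NICD2 1). The NICD1 value was -0.07 without GFP 3 and -0.27 without GFP 1, and the NICD1&2 value -0.13 and -0.33.

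Rgn, which codes for regucalcin, a calcium-binding lactonase of the vitamin C pathway, measured 8.83, 8.95 and 8.96 in GFP, 8.74, 8.94 and 8.46 in NICD1, 8.86, 8.78 and 8.92 in NICD2, and 8.96 and 9.17 in NICD1&2. NICD1 3 was the lowest array and NICD1&2 2 the highest. The differences from GFP were -0.20, -0.06 and 0.15 (adjusted p = 0.914, 0.983 and 0.613, limma), and -0.10, -0.11 and -0.09 after quantile normalization. The NICD2 value was -0.02 without NICD2 2 and -0.10 without GFP 1. The NICD1 value was -0.08 without NICD1 3 and -0.31 without NICD1 2, and the NICD1&2 value was 0.04 without NICD1&2 2 and 0.25 without NICD1&2 1.

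**Figure D2:**
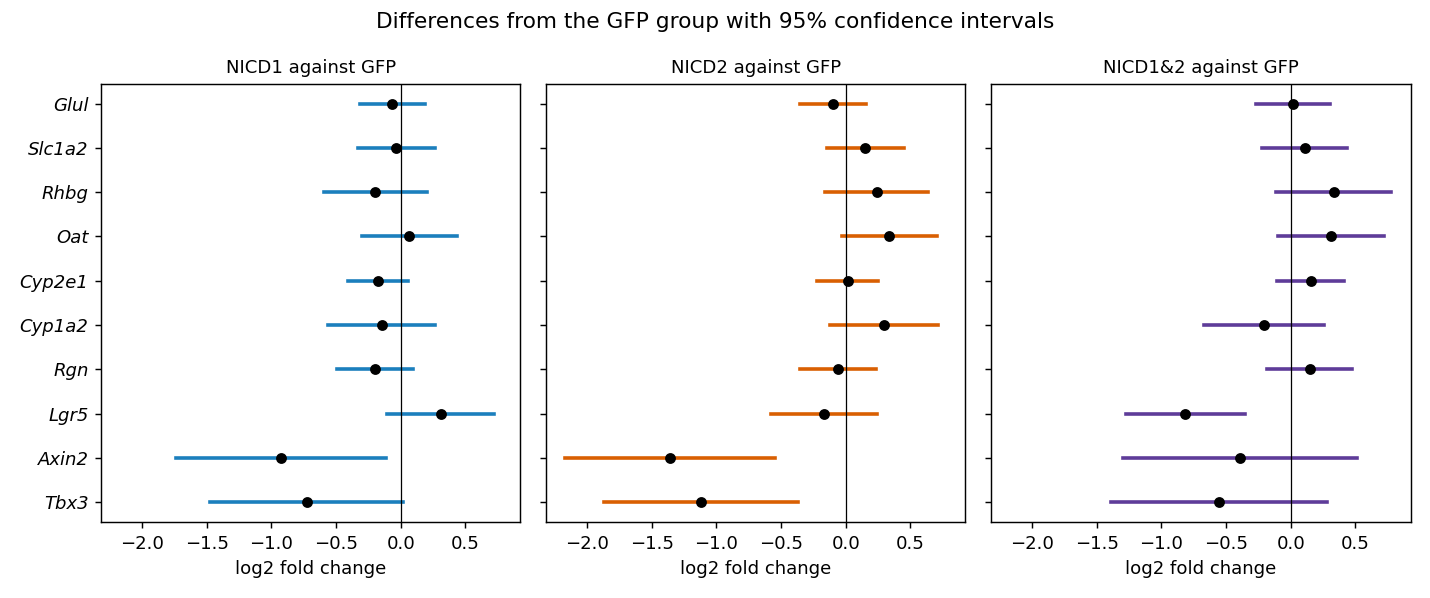
Log2 fold change of each perivenous gene (its brightest probe) against the GFP group, with 95% confidence intervals from limma, in one panel per NICD group. Most intervals cross 0, those of Glul and Cyp2e1 are the narrowest and those of Axin2 and Tbx3 the widest, and the intervals wholly below 0 are those of Axin2 with NICD1 (-1.73 to -0.11), of Axin2 (-2.17 to -0.54) and Tbx3 (-1.87 to -0.37) with NICD2, and of Lgr5 with NICD1&2 (-1.28 to -0.36).

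Axin2, Tbx3 and, with NICD1&2, Lgr5 gave the widest differences from GFP among the 10. Lgr5, the R-spondin receptor that strengthens Wnt signalling, measured -0.33, -0.28 and -0.56 in GFP, 0.27, -0.32 and -0.19 in NICD1, -0.67, -0.26 and -0.74 in NICD2, and -1.18 and -1.23 in NICD1&2. Both NICD1&2 arrays lay below every other array. Against GFP the difference was -0.82 (SE 0.20, 95% confidence interval -1.28 to -0.36), which is 1.76-fold lower, with an adjusted p of 0.180 (limma). It was -0.90 to -0.76 when any 1 array was left out, -0.87 on slide 1 and -0.68 on slide 2, and -0.49 after normexp background correction. Its adjusted p ranged from 0.0908 to 0.593 over the alternatives. Among all probes, 10.4% had both NICD1&2 arrays below all GFP arrays. With NICD1 alone Lgr5 was 0.31 higher (SE 0.18, adjusted p = 0.910) and with NICD2 alone 0.17 lower (SE 0.18, adjusted p = 0.944) than in GFP, with overlapping arrays, and without NICD1 1 the former was 0.14. The NICD2 value lay between -0.32 (without NICD2 2) and -0.07 (without NICD2 3).

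Axin2, a scaffold of the complex that degrades beta-catenin and a feedback inhibitor of the pathway, was dim. On A_52_P54176 it measured -1.43, -2.33 and -2.71 in GFP, -2.99, -3.01 and -3.23 in NICD1, -4.13, -3.41 and -3.00 in NICD2, and -2.31 and -2.79 in NICD1&2. All arrays of NICD1 and of NICD2 lay below all GFP arrays, and GFP 1 was the highest array of all. Of all probes, 5.44% were separate and lower with NICD1 and 5.66% with NICD2. The difference from GFP was -0.92 (SE 0.36, adjusted p = 0.883, limma) with NICD1 and -1.36 (SE 0.36, adjusted p = 0.399) with NICD2, which is 1.89-fold and 2.56-fold lower, and -0.39 (SE 0.40) with NICD1&2. Without GFP 1 these values were -0.56, -0.99 and -0.03. On slide 1 they were -1.11, -1.89 and -0.43 and on slide 2 -0.41, -0.29 and -0.08, and after normexp background correction -0.36, -0.46 and -0.22. The other probe, A_66_P134405, differed from GFP by -0.38 and -0.51 with NICD1 and NICD2 and by 0.20 with NICD1&2, with overlapping groups.

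Tbx3, a T-box repressor of transcription that Wnt signalling maintains in perivenous hepatocytes, measured 4.70, 3.41 and 3.74 in GFP, 3.66, 2.97 and 3.03 in NICD1, 2.66, 2.82 and 3.02 in NICD2, and 3.65 and 3.14 in NICD1&2. The NICD2 arrays lay below all GFP arrays, as for 5.66% of all probes, and GFP 1 was again the highest, on this probe and on A_55_P2732021. The difference from GFP was -0.73 with NICD1 (SE 0.33, adjusted p = 0.901, limma), -1.12 with NICD2 (SE 0.33, adjusted p = 0.480) and -0.55 with NICD1&2 (SE 0.37, adjusted p = 0.469). Without GFP 1 these were -0.35, -0.74 and -0.18, and within slides the NICD2 value was -1.32 and -0.72. A_55_P2732021 gave -0.71, -1.06 and -0.63. The study defined an altered gene by P under 0.15 with a fold change over 1.8 and did not say which test gave that P. Here and below the definition was applied to unadjusted limma p-values, so that the calls are not the study's own. The perivenous probes that passed were the brighter Axin2 probe with NICD1, that probe and both Tbx3 probes with NICD2, and 0 with NICD1&2. Of all probes, 2.22%, 1.98% and 6.23% passed.

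The direct comparison of NICD1 with NICD2, whose difference of means uses no GFP array while its error comes from all 11 arrays, asked whether the receptors differ. In it 0 of 15 probes were called and 0.00277% of all probes were. At an unadjusted p under 0.05 the count was 3 of 15 (Cyp1a2, Lgr5 and Rhbg), beside 3.74% of all probes. NICD1 less NICD2 was -0.44 log2 for Cyp1a2 (95% confidence interval -0.86 to -0.03), -0.43 for Rhbg (-0.83 to -0.04) and 0.48 for Lgr5 (0.06 to 0.89), each at an adjusted p of 1.0 (limma). Single arrays set much of these values, which were -0.24 for Cyp1a2 without NICD2 3, -0.26 for Rhbg without NICD1 3 and 0.30 for Lgr5 without NICD1 1. All NICD1 arrays lay below all NICD2 arrays for Cyp1a2, Oat and Slc1a2, beside 5.11% of all probes. For Glul the interval of the difference was -0.22 to 0.29, and for Cyp2e1 -0.43 to 0.04.

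NICD1&2 was then compared with each vector alone. Against NICD1, 0 of 15 probes were called, with 0.0139% of all probes, and 4 had an unadjusted p under 0.05, with 12.5% of all probes. The difference was -1.13 log2 for Lgr5 (SE 0.20, 95% confidence interval -1.59 to -0.67, adjusted p = 0.224, limma), or 2.18-fold lower, with both NICD1&2 arrays below the 3 NICD1 arrays, as for 8.74% of all probes. Cyp2e1 was higher by 0.33 (SE 0.12, adjusted p = 0.363), Rgn by 0.35 (SE 0.14, adjusted p = 0.388) and Rhbg by 0.53 (SE 0.20, adjusted p = 0.373), where the median of all genes was higher by 0.11. After quantile normalization these were -0.07 for Cyp2e1, 0.00 for Rgn and 0.47 for Rhbg, and the other Cyp2e1 probe differed by 0.20 with overlapping groups. Without NICD1 3 the Rgn value was 0.22. The Rhbg value was 0.35 without NICD1 3 and 0.73 without NICD1 1. After normexp background correction the Lgr5 value was -0.74. Against NICD2, 0 probes were called, with 0.00277% of all probes, and 3 had an unadjusted p under 0.05, with 8.9% of all probes. Those were Lgr5 at -0.65, Cyp1a2 at -0.50 and Axin2 at 0.96, where the median of all genes was 0.09, each at an adjusted p of 0.561. The Cyp1a2 value was -0.30 without NICD2 3, and that of Axin2 was 0.23 after normexp background correction. By the study's definition 1 probe passed in each of these comparisons, that of Lgr5 against NICD1 and the brighter one of Axin2 against NICD2, beside 2.7% and 3.06% of all probes. For Glul the NICD1&2 value differed by 0.08 (95% confidence interval -0.21 to 0.36) from NICD1 and by 0.12 (-0.17 to 0.40) from NICD2.

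The interaction of the vectors (NICD1&2 less NICD1 less NICD2 plus GFP) was also called for 0 of 15 probes, with 0% of all probes called and a lowest adjusted p of 0.640. At an unadjusted p under 0.05, which 7.03% of all probes reached, 3 of 15 were found. They were the brighter Axin2 probe (1.88, SE 0.54), the brighter Tbx3 probe (1.29, SE 0.50) and Lgr5 (-0.96, SE 0.27), and the Axin2 value was 0.59 after normexp background correction. A moderated F test over the 4 groups called 0 of 15 probes, with 0.0416% of all probes called and the lowest adjusted p, 0.314, for Lgr5. At an unadjusted p under 0.05 it found 3 of 15 (Lgr5 and the brighter probes of Axin2 and Tbx3), beside 9.18% of all probes.

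The perivenous genes differed among themselves in how much they varied between arrays of one group. The SD within groups lay at the 3.53 percentile of all probes tested for A_66_P134479 of Glul and up to the 83.9 percentile for Axin2, with both Tbx3 probes at 78.4 and 81.1. NICD1 3 was the lowest array for Cyp2e1, Cyp1a2, Rhbg and Rgn, and on it the 8 hepatocyte markers lay at a median of -0.18 log2 from their mean over all arrays and 22 other perivenous genes at -0.20. Their part in those low values was not tested. Across the 11 arrays, 28 of the 45 pairs of these genes correlated above 0, and 4 pairs had a Pearson r of 0.7 or more in size. Axin2 and Tbx3 had r = 0.88 (Spearman rho 0.87), and r = 0.68 without GFP 1 and NICD2 1, the arrays farthest from the median of Axin2. Cyp2e1 correlated with Rgn at r = 0.90 (rho 0.70, and r = 0.79 without NICD1 1 and NICD1 3) and with Lgr5 at r = -0.81 (rho -0.85, and -0.80 without those arrays). Oat correlated with Slc1a2 at r = 0.75 (rho 0.76, and r = 0.685 without GFP 1 and GFP 3). These are descriptions over arrays of 4 groups that share their scaling. The probes of one gene had r = 0.96 for Tbx3, 0.87 for Cyp2e1, 0.49 for Axin2 and 0.46 to 0.71 for Glul. Without the arrays farthest from the median, r was 0.89 for Tbx3, 0.56 for Cyp2e1 and 0.77 for Axin2, and the brightest Glul probe had r = 0.39 and -0.05 with the others. The genes whose pattern over 11 arrays was most like that of Glul, of 16623 compared, were Gmpr (r = 0.92), Ncapg2 (0.88), Rtl8a (0.85), Dock3 (0.85) and Cyp51 (0.85), over a Glul range of 0.34 log2. Without GFP 2 and NICD1 1 these were 0.82, 0.74, 0.80, 0.79 and 0.82. The remaining arrays were among those used to pick these genes for the highest r, so that these values are no separate check. The match is to the brightest Glul probe, which without GFP 2 and NICD1 1 had r = 0.39 and -0.05 with the other Glul probes. Whether the match holds for Glul on its other probes was not tested.

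Other genes of the zone and of its pathway were read from fixed lists in the same fit. Of 22 further perivenous genes, including the Cyp2c and Gstm families, 0 were called in any comparison with GFP, and the median log2 fold change was -0.11 with NICD1, 0.04 with NICD2 and 0.16 with NICD1&2, the last of which was -0.03 after quantile normalization. Of these 22, 6, 13 and 14 were higher than in GFP. The lowest p was that of Cyp7a1, the rate-limiting enzyme of bile acid synthesis, with NICD1 (0.61, SE 0.20, adjusted p = 0.80, limma) and with NICD2 (0.84, SE 0.20, adjusted p = 0.31). With NICD1&2 it was that of Gstm3, a glutathione transferase (0.46, SE 0.13, adjusted p = 0.21).

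Of 9 other Wnt target genes, 0 were called, and the medians were -0.08, -0.12 and -0.08, with 2, 2 and 3 of the 9 higher than in GFP. Sp5, a zinc finger factor that Wnt signalling induces, had the lowest p with NICD1 (-0.86, SE 0.23, adjusted p = 0.74, limma). Its signal was 0.69, 0.35 and -0.24 in GFP and -0.32, -0.71 and -0.74 in NICD1, so that the groups did not overlap, as for the 5.44% of all probes that were separate and lower. Rnf43, a ubiquitin ligase that removes Frizzled receptors from the cell surface, had the lowest with NICD2 (-0.55, SE 0.15, adjusted p = 0.42), and Tcf7 with NICD1&2 (-0.47, SE 0.15, adjusted p = 0.25). Znrf3 (0.26, 0.19 and 0.25) and Ccnd1 (0.38, 0.37 and 0.52), ligase and cyclin genes named after their values were seen, lay above GFP in each comparison.

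Of 11 Wnt ligands and receptors, 0 were called, with medians of -0.04, -0.06 and 0.07 (the last -0.01 after quantile normalization). Fzd6, a Frizzled receptor, had the lowest p in each comparison, at -0.90 (SE 0.25, adjusted p = 0.75, limma), -0.92 (SE 0.25, adjusted p = 0.42) and -0.55 (SE 0.28, adjusted p = 0.38). Of 7 genes of the beta-catenin complex and its DNA partners, 0 were called, with medians of 0.06, 0.03 and 0.04 (the last -0.05 after quantile normalization). Tcf7l2, the main TCF factor of hepatocytes, was at 0.21 (SE 0.10, adjusted p = 0.90) with NICD1, -0.06 with NICD2 and -0.47 (SE 0.11, adjusted p = 0.16) with NICD1&2, the last with 1.33 and 1.41 against 1.82, 1.93 and 1.77 in GFP.

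The opposite zone was read in the same way. Of 17 periportal genes, those of hepatocytes where blood enters the lobule, 0 were called, and the medians were -0.09, -0.03 and 0.17, the last of which was -0.09 after quantile normalization. At an unadjusted p under 0.05, the counts were 0 with NICD1, 6 with NICD2 (6 higher) and 7 with NICD1&2 (6 higher), beside 1, 2 and 1 of the 10 perivenous genes, 1, 3 and 5 of the 22 further ones, 3, 2 and 3 of the 9 other Wnt targets, and 5.48%, 6.81% and 14.8% of all probes. Hsd17b6, a hydroxysteroid dehydrogenase, had the lowest p with NICD1 (0.35, SE 0.16, adjusted p = 0.90, limma) and with NICD1&2 (1.1, SE 0.18, adjusted p = 0.08). Aldh1b1, a mitochondrial aldehyde dehydrogenase, had the lowest with NICD2, at 0.87 (SE 0.16, adjusted p = 0.15), with 4.68, 4.78 and 4.68 against 3.66, 3.83 and 4.03 in GFP. The difference between the zones was not tested.

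**Figure D3:**
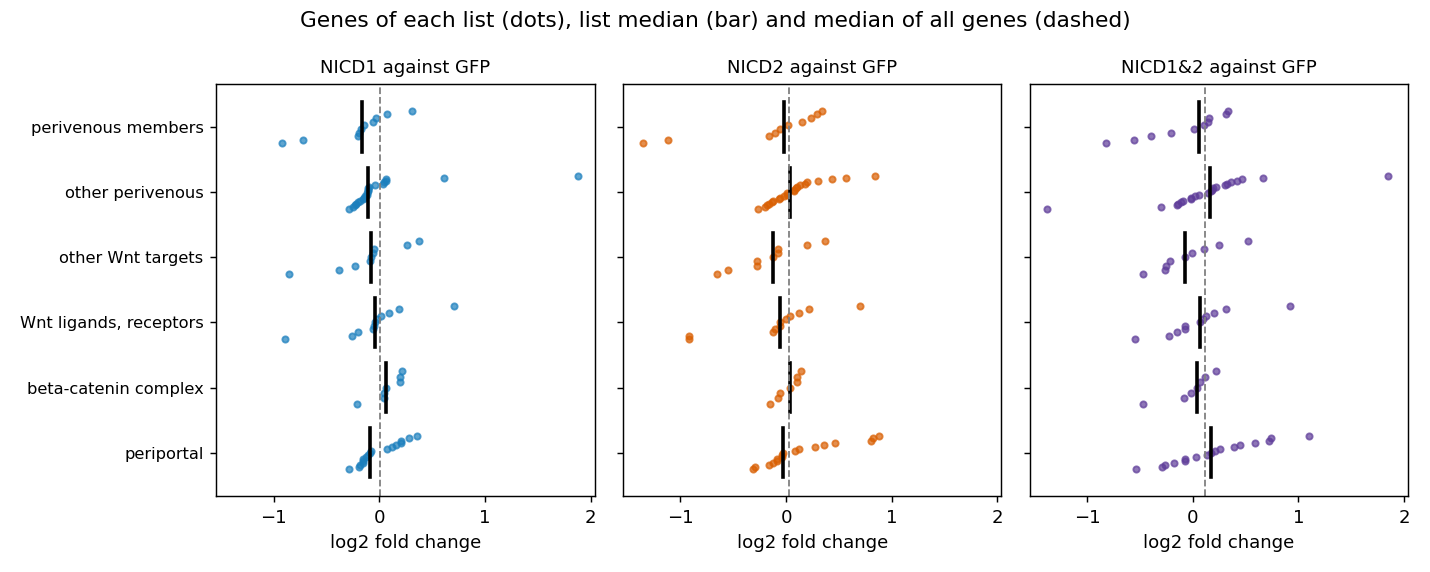
Log2 fold change against GFP for the genes of 6 lists in one panel per NICD group, with each dot a gene (its brightest probe), the black bar the median of the list and the dashed line the median of all genes tested. The medians of the perivenous list were -0.16, -0.02 and 0.06 against 0.00, 0.02 and 0.12 for all genes (-0.14 against 0.02 with NICD1&2 after quantile normalization), and most dots of each list lie within 1 log2 of 0.

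Markers of other liver cells were read beside these values. Of 6 bile duct markers tested, 5 were higher than in GFP in each comparison, with medians of 0.43, 0.32 and 0.47. Of these, Spp1, an osteopontin gene of duct cells that other liver cells also express, was called with NICD2 (1.81, adjusted p = 0.03, limma) and with NICD1&2 (2.23, adjusted p = 0.01), and stood at 1.71 with NICD1 (adjusted p = 0.10). It measured 2.64, 2.83 and 3.20 in GFP, 4.44, 4.90 and 4.46 in NICD1, 4.44, 4.89 and 4.78 in NICD2, and 4.96 and 5.29 in NICD1&2. Of 7 endothelial markers, most of them of the sinusoids in general and not of the central vein, 0 were called, and their median level on single arrays lay between -0.12 and 0.09 log2 of each gene's mean. Lyve1, an endothelial receptor for hyaluronan and named after its values were seen, was at 0.30, 0.86 and 0.93 (adjusted p = 0.914, 0.285 and 0.162). The 8 hepatocyte markers lay between -0.18 and 0.12 on that scale, with 0 called. Of 7 Kupffer cell markers 0 were called, with 7 lower than GFP with NICD1 (median -0.26), 6 lower with NICD2 (-0.23) and 4 lower with NICD1&2 (-0.01). Of 7 lymphocyte markers 0 were called, with 6, 7 and 4 lower (medians -0.20, -0.10 and -0.01). Of 6 stellate cell markers 0 were called, with 5, 6 and 5 higher (medians 0.11, 0.17 and 0.05). On single arrays the median level of the Kupffer markers lay between -0.22 and 0.33 in GFP, -0.21 and -0.06 in NICD1, -0.18 and -0.00188 in NICD2, and 0.09 and 0.14 in NICD1&2. The part of these cells in the perivenous values was not tested.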

How the data were processed

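Total liver RNA was labelled with Cy3 and read on Agilent arrays of 62976 spots, more than the format the methods name, and the methods and the labels name different RNA kits. The authors deposited log2 values from GeneSpring 14.9. On each array the median distance from log2 of the scanner's signal equalled the 75th percentile within 0.0089. Single probes departed from that median distance by up to 1.26 log2 (on NICD2 1). The scanner files, as deposited, hold spot intensities from Feature Extraction 11.5.1.1, with background subtracted, and the flag for a signal well above background.

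Groups came from the labels. Signals of repeated spots were averaged, and the 3671 control spots of each array were dropped. Accessions named 32994 of 56605 probes. The 36055 probes well above background on 2 arrays or more entered a model with a mean per group over 11 arrays (lmFit and eBayes, limma 3.58.1, R 4.3.3), checked on simulated data. Calls were made at a Benjamini-Hochberg adjusted p under 0.05. Single members were also tested by exact permutation.

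The members and all gene lists were chosen with earlier results of these data known, and the lists are described without tests. All member probes are named. Of another list, a called gene is named, otherwise the gene of lowest p in a comparison with GFP may be named, and Znrf3, Ccnd1, Lyve1, Hes1, Hey1 and Heyl were added afterwards. The 5 genes of highest correlation with Glul are named. Lists of aryl hydrocarbon receptor, Notch, acute phase, clock and fasting genes were read too. The alternatives were quantile normalization, the percentile over probes detected on all arrays, normexp (offset 50) with quantile normalization, scanner signals, other filters, a fit of the compared groups, an unmoderated model, blocks for replicate number and slide, other probes, the study's definition, and leaving out each array.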

Additional observations from a re-analysis of the deposited data

How the results depend on the processing

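Over 70 log2 fold changes of the 10 genes (7 comparisons) and 1530 alternatives, 0 passed the threshold, and the lowest adjusted p was 0.0892 (limma, Lgr5 in NICD1&2 against NICD1 under normexp). Of the 848 that change the fold change itself, 52 had the other sign, the largest value affected being 0.33. The study's definition gave 1 member probe with NICD1 and 3 with NICD2 against GFP, and 1 in NICD1&2 against NICD1 and against NICD2. Under quantile normalization, NICD1&2 against GFP was -0.16 for Glul, -0.12 for Cyp2e1, -0.012 for Slc1a2, -0.094 for Rgn and, as list medians, -0.028 for other perivenous, -0.00973 for Wnt ligand and receptor, -0.054 for beta-catenin and -0.092 for periportal genes. Under normexp these were -0.091, -0.14, -0.036, -0.012, -0.033, and -0.090 and -0.091 for the last lists. With the percentile of detected probes, Glul was -0.062 and the last lists -0.011, -0.034 and 0.091. Cyp2e1 with NICD2 was -0.010, -0.027 and -0.014 under these settings, and Rgn in NICD1 against NICD2 was 0.011 and 0.025 under the first pair. With the mean over probes, Glul with NICD1&2 was -0.011, Cyp2e1 with NICD2 -0.00891, other Wnt targets with NICD1&2 -0.22, Wnt ligands and receptors 0.014 with NICD1 and -0.00342 with NICD2, beta-catenin genes with NICD1&2 -0.051 and periportal genes with NICD2 0.051. In NICD1&2 against NICD1, quantile normalization gave -0.13 for Glul, -0.073 for Cyp2e1 and -0.046 for Oat, normexp -0.091 for Glul and Cyp2e1, the mean over probes -0.00601 for Glul, and the replicate block 0.017 for Cyp1a2. Against NICD2, quantile normalization gave -0.033 for Glul and -0.11 for Cyp2e1, and normexp -0.12 for Cyp2e1. For the interaction these gave -0.00420 for Glul and -0.063 for Cyp2e1, and -0.064 for Cyp2e1. The causes were not tested.

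Leaving out 1 array gave -0.035 to 0.073 for Glul with NICD1&2, -0.071 to 0.098 for Glul in NICD1 against NICD2, -0.028 to 0.052 for Cyp2e1 with NICD2, -0.030 to 0.25 for Oat with NICD1, and -0.15 to 0.077 and -0.00588 to 0.22 for Slc1a2 with NICD1 and NICD1&2. Against NICD2, NICD1&2 was -0.15 to 0.10 for Oat and -0.10 to 0.033 for Slc1a2, against NICD1 it was -0.081 to 0.43 for Tbx3, and the interaction was -0.28 to 0.034 for Oat and -0.12 to 0.10 for Slc1a2. List medians were -0.26 to 0.00604 for other Wnt targets with NICD1&2, -0.057 to 0.00971 and -0.022 to 0.089 for Wnt ligands and receptors with NICD2 and NICD1&2, 0.015 to 0.19, -0.024 to 0.050 and -0.021 to 0.11 for beta-catenin genes, and -0.11 to -0.031, -0.034 to 0.063 and 0.052 to 0.31 for periportal genes. The labels do not say whether arrays of the same replicate number are paired, and the residuals do not settle it. The 15 same-number pairs had residual correlations of -0.41 to 0.17, with 6 above 0.1. Of 11 arrays, 5 correlated best with their own number. With the replicate block 0 member probes were called, as without it, and Glul with NICD1&2 was -0.017. Precision is limited by 2 or 3 arrays per group.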

Other observations

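Lists that touch the regulation of these genes outside the Wnt pathway were read in the same fit. Of 4 target genes of the aryl hydrocarbon receptor that were tested, which share a regulator with Cyp1a2, 0 were called, and the median log2 fold change was -0.29, -0.08 and -0.12 with NICD1, NICD2 and NICD1&2. Of 8 acute phase genes 0 were called, with medians of -0.36, -0.20 and -0.01, and 0 of the 8 were higher than GFP with NICD1. Of 10 clock genes 0 were called, with medians of -0.01, 0.19 and 0.23. Of 7 fasting genes 0 were called, with medians of 0.02, 0.02 and 0.25. Of 7 Notch genes tested 0 were called, with medians of 0.22, 0.29 and 0.71. Without Notch1 and Notch2, whose probes may or may not read the vectors, the medians of the other 5 were 0.11, 0.84 and 1.16, and for Nrarp the adjusted p was 0.84, 0.10 and 0.07 (limma).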
